A study of Mus musculus with 6 samples.

Results

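The elastic fibre and microfibril genes are 10 genes chosen by symbol, namely elastin (Eln), the fibrillins Fbn1 and Fbn2, the fibulins Fbln1, Fbln2, Fbln5, Efemp1 and Efemp2, and the microfibril-associated proteins Mfap4 and Mfap5. All 10 were found among the 46095 gene symbols of the count table, and all 10 were among the 16061 genes that passed the filter on low counts. They were measured by RNA sequencing in cultured cells of the mouse nucleus pulposus, which is the gel-like centre of an intervertebral disc. The cells came from mice of 8 weeks, were released from the tissue with collagenase, and were taken at passage 2 in medium with fetal bovine serum. There were 3 genotypes with 2 libraries each: wild type, Chsy3 heterozygous, and Chsy3 knockout. Chsy3 encodes a chondroitin sulfate synthase, which lengthens the sugar chains of proteoglycans. The allele, the strain and the number of animals behind a library are not stated in the labels used here.

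Elastic fibres give tissues recoil. They hold a core of elastin, which is secreted as soluble tropoelastin and joined by lysyl oxidases, and this core is laid onto a scaffold of microfibrils built from fibrillins. Fibulins link the parts, and fibulin-4 and fibulin-5 are needed for elastin to be placed and cross-linked. In the disc, elastic fibres lie between the collagen lamellae of the annulus fibrosus and, more sparsely, in the nucleus pulposus.

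Of the 10 members, 6 have promoter entries in the RefSeq table (GRCm38.p6), and 3 of these have a single one. Those 3 are shown because they cover both directions of change in the knockout: Fbn1 and Fbln2 fell together and Efemp1 rose. Each stretch runs 5′ to 3′ on the gene's strand, from 250 bases before to 50 bases after the start of transcription. Capitals mark matches, on either strand, to the GC box (GGGCGG) or to the AP-1 motif (TGANTCA).
Fbn1 (chr2:125506389-125506688, strand -): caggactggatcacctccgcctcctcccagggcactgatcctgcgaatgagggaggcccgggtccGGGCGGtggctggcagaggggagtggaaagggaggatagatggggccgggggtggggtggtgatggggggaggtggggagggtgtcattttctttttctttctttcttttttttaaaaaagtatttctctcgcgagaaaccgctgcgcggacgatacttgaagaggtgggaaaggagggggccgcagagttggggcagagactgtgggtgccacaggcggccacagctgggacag
Fbln2 (chr6:91212514-91212813, strand +): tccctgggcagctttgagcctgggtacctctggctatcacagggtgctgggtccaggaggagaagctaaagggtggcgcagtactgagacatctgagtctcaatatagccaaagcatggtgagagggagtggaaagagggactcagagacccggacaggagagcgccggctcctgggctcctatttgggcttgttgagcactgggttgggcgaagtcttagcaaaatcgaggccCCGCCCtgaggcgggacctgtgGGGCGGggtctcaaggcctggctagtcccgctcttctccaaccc
Efemp1 (chr11:28852955-28853254, strand +): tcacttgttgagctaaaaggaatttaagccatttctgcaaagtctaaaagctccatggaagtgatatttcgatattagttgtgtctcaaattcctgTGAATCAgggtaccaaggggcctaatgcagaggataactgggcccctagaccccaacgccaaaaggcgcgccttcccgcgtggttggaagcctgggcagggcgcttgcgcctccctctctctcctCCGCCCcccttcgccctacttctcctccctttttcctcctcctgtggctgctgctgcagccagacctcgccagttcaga

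The Fbn1 stretch held 1 GC box, at -185 from the start site, and the Fbln2 stretch held 2, at -16 and 7. The Efemp1 stretch held 1 GC box at -29 and 1 AP-1 match at -154. No match in these 3 stretches overlapped another. Across all 32851 promoter stretches of this length, 35.7% held a GC box and 7.81% an AP-1 match. The other 5 motifs searched on both strands, the TATA box (TATAAA), the CCAAT box (CCAAT), the TEAD motif (GGAATG), the SMAD motif (CAGACA) and the E-box (CACGTG), were not found in the 3 stretches, and 13.6%, 37.4%, 14.7%, 21.0% and 7.15% of all promoter stretches held them. Each of the 6 members with entries outside chromosome 18 had a GC box in at least 1 of its promoters. The GC content was 60.3% for Fbn1 and for Fbln2 and 54.3% for Efemp1, against a median of 52.7% over all stretches. These matches describe the sequence and were not tested as binding sites.

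Total counts lay between 29622117 and 33899611 per library, and libraries of a genotype differed by more than sampling noise (chi-square per degree of freedom of 3.56 to 3.72). Chsy3, the targeted gene, had 284 and 284 counts in wild type, 167 and 197 in heterozygous and 118 and 76 in knockout. Its fitted level was 71.8% of wild type in heterozygous and 34.7% in knockout, so Chsy3 reads remained in the knockout libraries. Counts per gene do not show which exons these reads cover. All libraries are labelled male, yet the 4 Y-linked genes Ddx3y, Uty, Kdm5d and Eif2s3y together had 0 counts in both heterozygous libraries against 2020 to 2620 in the others. Xist, the RNA of the silenced X chromosome in female cells, was present in all 6 libraries. It lay at 663.4 and 653.5 CPM in wild type, 1080 and 1071.5 in heterozygous, and 650.5 and 653.3 in knockout (CPM are counts scaled by library size). Wild-type and knockout libraries thus held Xist together with Y-linked reads, so the male label does not settle the sex of the cells in any library. Every comparison with the heterozygous libraries therefore joins a difference in sex-linked reads to the difference in genotype, and the 2 cannot be told apart. Of 13 nucleus pulposus and notochord markers, 6 passed the filter. Their wild-type means were 55.8 CPM for Cdh2, 22.8 for Col2a1, 16.0 for Sox9, 15.7 for Krt19, 13.3 for Cd24a and 0.338 for Car3. The notochord gene T was at 0 in all libraries and Acan, which encodes aggrecan, at 0 in 5 of 6. The name of the cells is taken from the labels and was not tested. Summed fibroblast markers (13 genes) and macrophage markers (12 genes) were high in all libraries, at 24950 to 48150 and 14260 to 17590 CPM.

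The members differed widely in level in wild type. Fbln2 stood highest per length, at 543.9 ± 0.444 CPM per kb of exon, followed by Fbn1 at 156.6 ± 1.0 and Efemp2 at 90.3 ± 2.51 (SD, n = 2). Efemp1 at 47.6 ± 0.438 and Fbln5 at 47.5 ± 0.579 came next, and their libraries overlapped. Mfap5 at 26.1 ± 0.853, Fbn2 at 21.6 ± 0.125, Fbln1 at 12.8 ± 0.118 and Mfap4 at 10.3 ± 1.56 followed, and Eln was the lowest at 2.15 ± 0.186 CPM per kb (SD, n = 2). Apart from Efemp1 and Fbln5, libraries of neighbours in this order did not overlap. Eln was also lowest in heterozygous and in knockout, and Fbln2 highest. Exon lengths were taken over all annotated transcripts, so the order between genes depends on which transcripts the cells use.

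Knockout was set against wild type to ask how this gene group stands in the libraries labelled Chsy3 knockout. Elastin fell most, to 11.8% of its wild-type level, and Mfap4 fell to 18.01%. Both fibrillins fell, Fbn2 to 36.8% and Fbn1 to 53.6%, as did Fbln1 (50.2%), Mfap5 (55.1%) and Fbln2 (58.6%). Efemp1, which encodes fibulin-3, rose 2.09-fold and Efemp2, which encodes fibulin-4, rose 1.22-fold. Fbln5 did not pass the threshold. In all, 7 of 10 members were lower and 2 higher (quasi-likelihood test of edgeR, with an adjusted p under 0.05 by the Benjamini-Hochberg or BH method over 16061 genes), while 18.9% of all tested genes were lower and 19.2% higher. The median log2 fold change was -0.88 over the members and -0.00 over all tested genes. The groups did not overlap for any of the 10 members, against 66.6% of all tested genes. With the heterozygous libraries left out of the fit the counts were again 7 and 2.

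**Figure D1:**
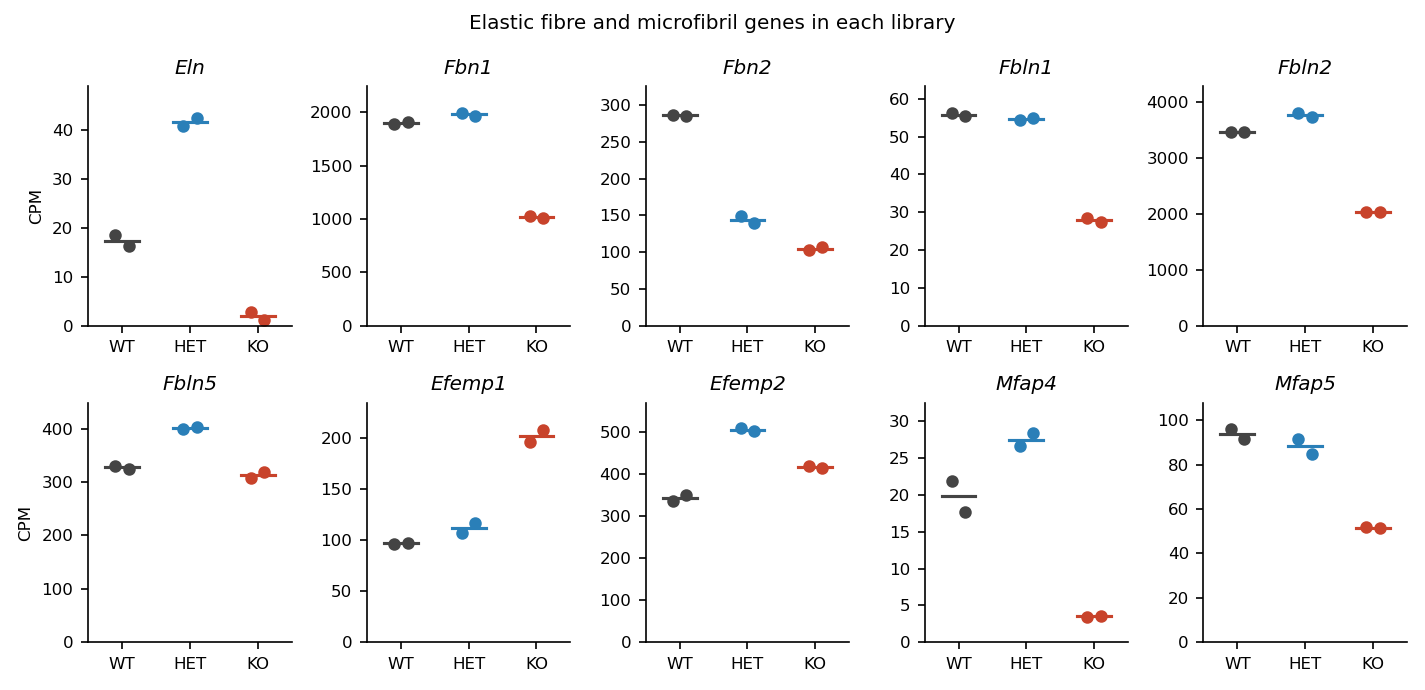
Level of each of the 10 genes in every library, in CPM on a linear axis from 0. Points are the 2 libraries of wild type (WT), heterozygous (HET) and knockout (KO), and bars their means. Eln and Mfap4 are close to 0 in KO, Fbn2 is lower in both HET and KO, and Efemp1 is highest in KO.

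Elastin was the member with the widest range (ENSMUSG00000029675.12, chromosome 5, 134702593 to 134747323, minus strand, GRCm38). Its counts were 629 and 556 in wild type, 1177 and 1351 in heterozygous and 94 and 44 in knockout. In CPM these were 18.5 and 16.4 in wild type, 40.8 and 42.5 in heterozygous, and 2.85 and 1.29 in knockout. The 3 genotypes did not overlap, and the order was heterozygous, wild type, knockout. Against wild type, knockout had a log2 fold change of -3.08 ± 0.19 (SE; edgeR, BH-adjusted p = 2.22e-11) and heterozygous 1.26 ± 0.13 (edgeR, BH-adjusted p = 1.76e-07), and the direct difference between knockout and heterozygous was -4.34 ± 0.18 (edgeR, BH-adjusted p = 4.05e-14). The knockout libraries differed from each other more than 2-fold, so the size of the decrease is less certain than its direction: it was 8.44-fold with both, 13.5-fold without knockout library 1 and 6.10-fold without knockout library 2. Against heterozygous the decrease was 20.2-fold with both, and 32.2-fold and 14.6-fold in the same order.

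The fibrillins form the microfibril scaffold, Fbn1 throughout life and Fbn2 mainly in development. Fbn1 (chromosome 2, 125300594 to 125507993, minus strand) reached 1890 and 1907 CPM in wild type, 1991 and 1965 in heterozygous, and 1026 and 1008 in knockout. The knockout libraries alone were low, and the log2 fold change against wild type was -0.90 ± 0.02 (SE; edgeR, BH-adjusted p = 3.13e-33). In heterozygous Fbn1 was 1.04-fold wild type (log2 0.06 ± 0.02, SE; edgeR, BH-adjusted p = 0.0166), and this call was lost in 4 of 14 alternatives, with library totals alone (adjusted p = 0.510), without heterozygous library 1 or 2 (adjusted p = 0.126 and 0.0538) and without wild-type library 1 (adjusted p = 0.133), in a range of 0.000628 to 0.510.

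Fbn2 had another order. It reached 286.8 and 284.5 CPM in wild type, 148.6 and 139.6 in heterozygous, and 102.8 and 107.3 in knockout. Both genotypes with a lost allele were lower than wild type, and the knockout was the lowest, with no overlap. The log2 fold change was -0.99 ± 0.04 in heterozygous against wild type (SE; edgeR, BH-adjusted p = 4.28e-25), -1.44 ± 0.04 in knockout against wild type (edgeR, BH-adjusted p = 8.43e-31) and -0.46 ± 0.04 between knockout and heterozygous cells (edgeR, BH-adjusted p = 4.62e-13). Within each library the ratio of Fbn2 to Fbn1, both in CPM per kb, was 0.139 and 0.137 in wild type, 0.0685 and 0.0652 in heterozygous, and 0.0920 and 0.0976 in knockout. The heterozygous libraries thus had the least Fbn2 for their Fbn1. Fbn2 was the only member lower than wild type in both genotypes by these tests, and with library totals alone Mfap5 was too.

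Fbn2 lies on the chromosome of the targeted gene (chromosome 18, 58008623 to 58210487, minus strand, GRCm38), and 964913 bases separate it from Chsy3 (59175401 to 59535999, plus strand). Of 30 tested genes within 2000000 bases of Chsy3, Fbn2 included, 12 were lower and 5 higher in knockout than in wild type, against 18.9% and 19.2% of all tested genes. In heterozygous 9 were lower and 4 higher than in wild type, against 19.7% and 19.2%. Between knockout and heterozygous the counts went the other way, with 7 lower and 10 higher in knockout, against 17.9% and 19.1%. This window was chosen after the values were seen. The part of linked sequence in the Fbn2 values was not tested.

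The fibulins divided. Fibulin-1 and fibulin-2, which also bind fibronectin and basement membrane proteins, followed Fbn1. Fbln1 (chromosome 15, 85205949 to 85286535, plus strand) had 56.2 and 55.4 CPM in wild type, 54.4 and 55.0 in heterozygous and 28.6 and 27.4 in knockout. Fbln2 (chromosome 6, 91212455 to 91272540, plus strand) had 3467 and 3463 CPM in wild type, 3810 and 3728 in heterozygous and 2030 and 2030 in knockout. In both genes the knockout libraries were low. The log2 fold change in knockout against wild type was -0.99 ± 0.07 for Fbln1 and -0.77 ± 0.02 for Fbln2 (SE; edgeR, BH-adjusted p = 1.75e-16 and 1.31e-32). In heterozygous Fbln2 rose 1.09-fold (edgeR, BH-adjusted p = 3.24e-07), and Fbln1, at 98.0% of wild type, did not pass the threshold (edgeR, BH-adjusted p = 0.762). Over the 6 libraries, centred on each gene's mean, Fbn1 and Fbln1 differed by 0.046 log2 CPM (root mean square) and Fbn1 and Fbln2 by 0.054, the smallest distances among the 10 members.

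The short fibulins did not follow Fbn1. Efemp1 encodes fibulin-3, an extracellular glycoprotein needed for intact fascia (chromosome 11, 28853204 to 28926743, plus strand). It had 96.3 and 97.6 CPM in wild type, 107.4 and 116.5 in heterozygous, and 196.7 and 207.9 in knockout. The genotypes did not overlap and the knockout was highest, with a log2 fold change of 1.06 ± 0.04 against wild type (SE; edgeR, BH-adjusted p = 4.68e-24) and 0.85 ± 0.04 against heterozygous (edgeR, BH-adjusted p = 1.19e-20). In heterozygous it was 1.16-fold wild type (log2 0.21 ± 0.04; edgeR, BH-adjusted p = 0.00016). Efemp1 was the only member higher in knockout than in heterozygous.

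Efemp2 encodes fibulin-4, which brings lysyl oxidase to tropoelastin (chromosome 19, 5473954 to 5482517, plus strand). It had 335.5 and 348.9 CPM in wild type, 509.1 and 501.1 in heterozygous, and 419.5 and 414.8 in knockout, so both altered genotypes stood above wild type and heterozygous was highest. The log2 fold change was 0.56 ± 0.03 in heterozygous and 0.29 ± 0.03 in knockout, each against wild type (SE; edgeR, BH-adjusted p = 4.24e-21 and 8.77e-12). Fbln5, a cell-binding fibulin needed for elastic fibre assembly (chromosome 12, 101746565 to 101819055, minus strand), had 330.7 and 325.1 CPM in wild type, 399.8 and 403.1 in heterozygous, and 307.7 and 319.3 in knockout. It rose 1.22-fold in heterozygous (edgeR, BH-adjusted p = 2.26e-11). In knockout it was at 95.6% of wild type (log2 -0.06 ± 0.03, SE; edgeR, BH-adjusted p = 0.0746), which passed the threshold only without knockout library 2 (adjusted p = 0.0364, range over 14 alternatives 0.0364 to 0.463).

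**Figure D2:**
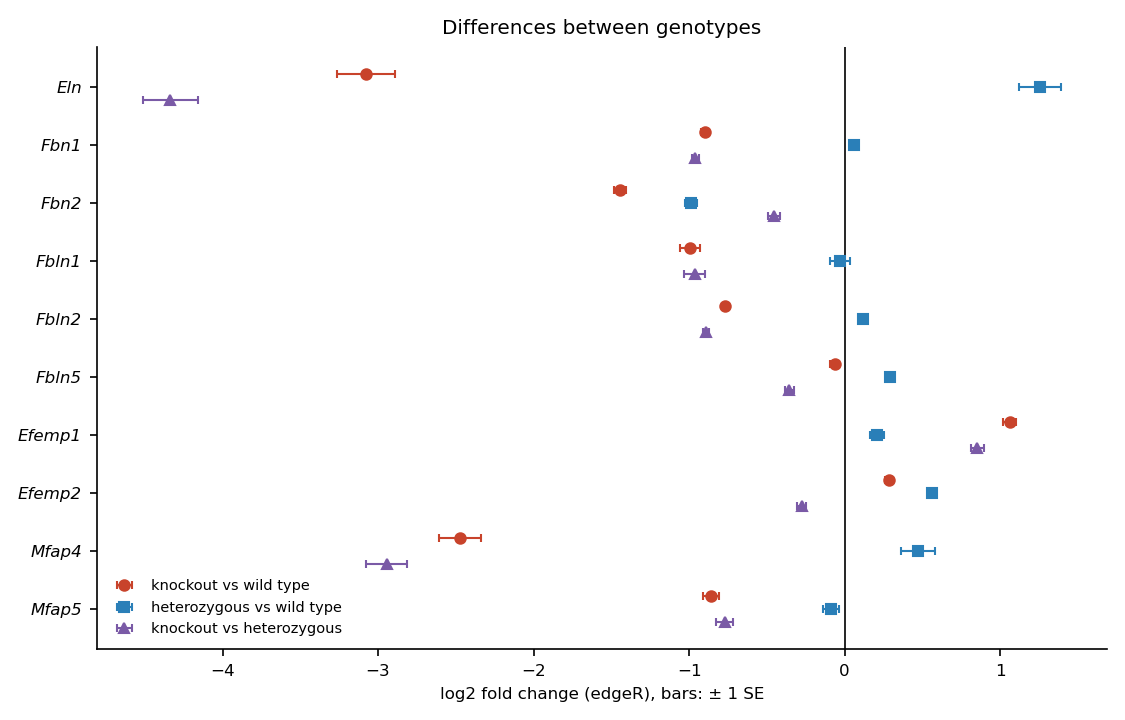
Log2 fold change of each gene in the 3 comparisons, from the edgeR fit of all 6 libraries; bars are ± 1 SE, and the line at 0 marks no difference. Most members lie left of 0 in knockout against wild type and against heterozygous, Efemp1 lies right in both, and Fbn2 is the member clearly left of 0 in heterozygous against wild type.

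The microfibril-associated proteins differed in size of change. Mfap4 encodes a fibrinogen-related protein that binds elastin and fibrillin (chromosome 11, 61485431 to 61488900, plus strand). It had 746 and 601 counts in wild type, 766 and 900 in heterozygous and 115 and 124 in knockout, or 21.9 and 17.7, 26.6 and 28.3, and 3.49 and 3.63 CPM. The knockout libraries stood far below the rest. The log2 fold change was -2.47 ± 0.13 in knockout against wild type (SE; edgeR, BH-adjusted p = 1.33e-19). In heterozygous it was 0.47 ± 0.11 (edgeR, BH-adjusted p = 0.000528), and this call was lost without wild-type library 2 (adjusted p = 0.0544, range over 14 alternatives 5.67e-05 to 0.0544). Mfap5 encodes a small protein that binds fibrillins (chromosome 6, 122505845 to 122529290, plus strand). It had 95.9 and 91.5 CPM in wild type, 91.7 and 84.7 in heterozygous, and 52.0 and 51.4 in knockout. Only the knockout stood apart (log2 -0.86 ± 0.05, SE; edgeR, BH-adjusted p = 2.19e-17), and wild type and heterozygous overlapped (edgeR, BH-adjusted p = 0.19). Within a library the ratio of Mfap5 to Fbn1 in CPM per kb stayed between 0.146 and 0.172.

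Some reads of the members could belong to other genes, since the strand setting of the counting is not stated in the labels used here. In the GENCODE M21 annotation 89 exonic bases of Mfap4 lie within Mapk7 on the other strand and 173 of Efemp2 within Mus81. Mapk7 lay between 40.7 and 52.9 CPM in all libraries and was 1.18-fold higher in knockout than in wild type (edgeR, BH-adjusted p = 0.00433), though not past the threshold without knockout library 2 or wild-type library 1 (adjusted p = 0.0892 and 0.0950). Mus81 was at 81.9% of wild type in knockout (edgeR, BH-adjusted p = 0.0597) and 77.4% in heterozygous (edgeR, BH-adjusted p = 0.0152); the knockout value passed without wild-type library 2 (adjusted p = 0.0122), and the heterozygous call was lost with DESeq2 and without heterozygous or wild-type library 1 (adjusted p = 0.0535, 0.0702 and 0.353). Shorter antisense genes lie over 282 bases of Eln and 236 of Fbn2, with 7 and 62 counts over all libraries. Gm9913 lies over 2442 bases of Fbn1 on the other strand and is not among the gene symbols of the count table, so its level is unknown. The part of reads from overlapping genes in the members' values was not tested.

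Heterozygous was set against wild type to ask what accompanies the loss of a single allele. Elastin rose 2.39-fold, and Efemp2, Mfap4, Fbln5, Efemp1, Fbln2 and Fbn1 were higher by 1.48-fold to 1.04-fold. Fbn2 fell to 50.4% of wild type. In all, 7 members were higher and 1 lower (edgeR, BH-adjusted p under 0.05), while 19.2% of all tested genes were higher and 19.7% lower, and the median over the members was 0.17 log2. The groups did not overlap for 9 of 10 members, against 67% of all tested genes. Scaling by library totals alone left 6 higher and made 2 lower, Mfap5 being added (adjusted p = 0.0454). These are also the libraries with no Y-linked reads.

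Knockout was compared directly with heterozygous, since both were otherwise set against the same wild-type libraries. In knockout 9 of 10 members were lower and Efemp1 was higher (edgeR, BH-adjusted p under 0.05), while 17.9% of all tested genes were lower and 19.1% higher. The median over the members was -0.83 log2 and over all tested genes 0.01. The groups did not overlap for any of the 10 members, against 65.7% of all tested genes. Elastin was at 4.95% of its heterozygous level, Mfap4 at 13.0%, Fbn1 at 51.4%, Fbln1 at 51.2%, Fbln2 at 53.9% and Mfap5 at 58.6%. Fbn2 (72.9%), Fbln5 (78.1%) and Efemp2 (82.6%) were the least lowered (edgeR, BH-adjusted p at most 2.40e-11 for these 9).

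The makeup of the group shifted in the knockout. As a share of the summed level of the 10 members in CPM per kb, Fbln2 made up 56.8% and 56.7% in wild type, 55.6% and 55.1% in heterozygous and 46.4% and 46.2% in knockout. Fbn1 went from 16.3% and 16.4% in wild type to 12.3% and 12.0% in knockout. Efemp1 went from 4.93% and 5.0% to 14.1% and 14.8%, and Efemp2 from 9.24% and 9.61% to 16.2% and 15.9%. Within a library the ratio of Efemp1 to Fbn1 was 0.303 and 0.305 in wild type, 0.321 and 0.353 in heterozygous, and 1.14 and 1.23 in knockout, so transcripts of fibulin-3 outnumbered those of fibrillin-1 per length in the knockout libraries. In counts, the members together took 0.663% and 0.664% of all reads in wild type, 0.699% and 0.691% in heterozygous, and 0.424% and 0.427% in knockout.

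Fibroblast markers moved with many members. Their sum was 40270 and 40920 CPM in wild type, 48150 and 46940 in heterozygous, and 25110 and 24950 in knockout, or 0.617 of wild type in knockout and 1.17 in heterozygous. Of the 13 markers, 10 were lower and 3 higher in knockout, and 10 were higher and 3 lower in heterozygous (edgeR, BH-adjusted p under 0.05), against 18.9% lower and 19.2% higher of all tested genes in knockout and 19.2% higher and 19.7% lower in heterozygous; none was at 0. The 3 that rose in knockout were Dcn, from a mean of 113.9 to 200.4 CPM, Lum, from 12.3 to 24.9, and Pdgfra, from 94.0 to 183.3, named after their values were seen. In heterozygous Thy1, Col6a2 and Col6a3 fell. Fn1, Col1a1 and Col1a2 carried 74.4% to 80.3% of the sum, so it follows mainly these 3 genes. In bulk cultures fewer cells of a type and less RNA per cell cannot be told apart. Divided by the marker sum of its library, Fbln2 was at 0.950 of wild type in knockout, Mfap5 at 0.894, Fbn1 at 0.869 and Fbln1 at 0.814. On the same scale Eln was at 0.192, Mfap4 at 0.291 and Fbn2 at 0.596, while Fbln5 was at 1.55, Efemp2 at 1.98 and Efemp1 at 3.39. In heterozygous the same division gave 2.04 for Eln, 0.431 for Fbn2 and between 0.803 and 1.26 for the other 8. These ratios depend on which markers are used. With the geometric mean of the 13 markers, which weighs them equally, Fbln2 was at 0.757 in knockout, Mfap5 at 0.712, Fbn1 at 0.692 and Fbln1 at 0.649. Eln, Mfap4 and Fbn2 were at 0.153, 0.232 and 0.475, and Fbln5, Efemp2 and Efemp1 at 1.24, 1.58 and 2.70. Divided by Dcn, Lum and Pdgfra alone, Fbln5 was at 0.515 and Efemp2 at 0.657, so both turned from above to below wild type, Efemp1 was at 1.13, and the 7 members that fell were at 0.0637 to 0.316. In heterozygous Eln was at 1.61 with the geometric mean and at 0.780 with those 3 markers. These other divisions were chosen after seeing the data. The markers include collagen genes that are themselves matrix genes, and no test was made of these ratios.

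**Figure D3:**
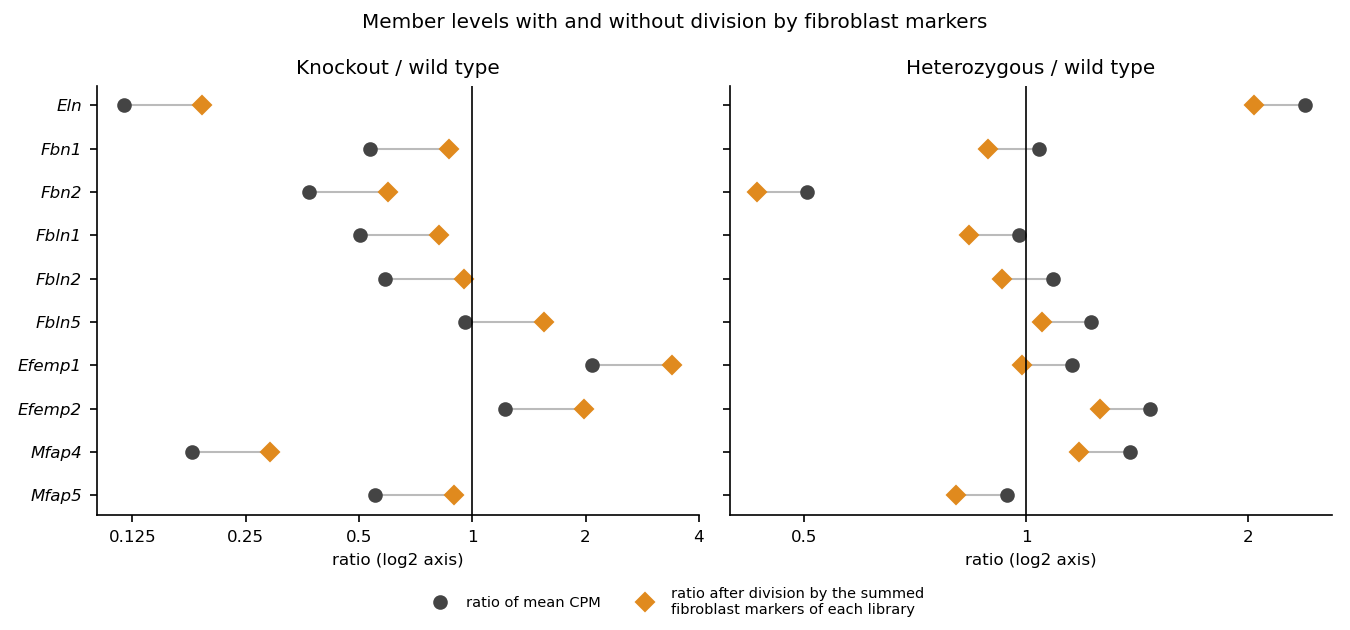
Ratio of each member in knockout (left) and heterozygous (right) to wild type, on a log2 axis with a line at a ratio of 1. Circles are ratios of mean CPM and diamonds the same ratios after each library was divided by its summed fibroblast markers. In knockout the diamonds of Fbn1, Fbln1, Fbln2 and Mfap5 lie between 0.814 and 0.950, and those of Eln, Mfap4 and Fbn2 lie at or below 0.596.

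Markers of other cells also moved. Smooth muscle and myofibroblast markers summed to 4351 and 4296 CPM in wild type, 3071 and 3107 in heterozygous and 2639 and 2588 in knockout, with 7 of 10 lower and 1 higher in knockout and 5 lower and 3 higher in heterozygous (edgeR, BH-adjusted p under 0.05), against 18.9% lower and 19.2% higher, and 19.7% and 19.2%, of all tested genes. Macrophage markers summed to 14550 and 14260, 17590 and 17460, and 16660 and 16490 CPM in the same order. Of 12 tested, 9 were higher and 0 lower in knockout, against 19.2% and 18.9% of all tested genes. In heterozygous 8 were higher and 1 lower, against 19.2% and 19.7%. Lyz2 carried the largest part of the sum, at a mean of 7208, 8841 and 7021 CPM in wild type, heterozygous and knockout. Summed adipocyte markers rose from 223.9 and 222.6 CPM to 401.7 and 408.6 in heterozygous and 530.9 and 528.0 in knockout. Of 8 tested markers 8 were higher in knockout and 7 in heterozygous, against 19.2% of all tested genes in each. Lpl carried most of the sum, at a mean of 149.3, 272.1 and 376.0 CPM in wild type, heterozygous and knockout. Adipoq was low, at 0.32, 1.80 and 2.07 CPM in the same order, and Lep was at 0 in all libraries. Endothelial markers summed to 34.8 and 34.8 CPM in wild type, 29.7 and 27.5 in heterozygous and 74.2 and 77.5 in knockout. Of 5 tested markers 3 were higher and 1 lower in knockout, against 19.2% and 18.9% of all tested genes. Vwf rose from a mean of 20.4 CPM in wild type to 54.8 in knockout and Kdr from 7.33 to 18.7, while Cdh5 fell from 6.54 to 0.993. Pecam1 reached a mean of only 0.79 CPM in knockout, and Cldn5 was at 0 in all libraries. Chondrocyte markers summed to 323.9 to 818.9 CPM, highest in heterozygous. Of 7 tested, 4 were higher and 1 lower in heterozygous, against 19.2% and 19.7% of all tested genes. In knockout 2 were higher and 1 lower, against 19.2% and 18.9%. Col11a1 and Comp carried most of the sum, at means of 327.1 and 28.7 CPM in wild type. Their means were 491.0 and 251.9 in heterozygous and 196.7 and 83.8 in knockout. Col2a1 was lowest in heterozygous, at 22.8, 5.65 and 21.3 CPM in wild type, heterozygous and knockout. The part of these cells in the members' values was not tested.

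Lysyl oxidases, which cross-link elastin and collagen, fell in the knockout in all 5 listed genes, each by less than the members that fell; without knockout library 2 or wild-type library 1 the count was 4, as Loxl4 no longer passed (adjusted p = 0.0642 and 0.192). Lox, the most abundant, lies on chromosome 18 as Chsy3 does (52516067 to 52529867, minus strand), outside the window used around Chsy3. The part of linked sequence in the Lox values was not tested. Lox had 6743 and 6889 CPM in wild type, 8999 and 8964 in heterozygous, and 5550 and 5532 in knockout. Its log2 fold change was -0.30 ± 0.02 in knockout and 0.40 ± 0.02 in heterozygous, each against wild type (SE; edgeR, BH-adjusted p = 6.24e-20 and 2.70e-24). Loxl1, which serves elastic fibres in particular, was lower in both, at -0.14 and -0.20 log2. Loxl2, Loxl3 and Loxl4 were at -0.52, -0.42 and -0.19 in knockout. In heterozygous Loxl4 was at 0.62, Loxl2 at -0.11 and Loxl3 at -0.14 log2 (edgeR, BH-adjusted p = 5.96e-12, 0.0109 and 0.0511), and Loxl3 passed the threshold in 7 of 14 alternatives. The list had 0 higher and 5 lower of 5 in knockout and 2 higher and 2 lower in heterozygous (edgeR, BH-adjusted p under 0.05), with medians of -0.30 and -0.11 log2. Of all tested genes 19.2% were higher and 18.9% lower in knockout, and 19.2% and 19.7% in heterozygous. The lower count in heterozygous was 1 with DESeq2 and without heterozygous library 2 or wild-type library 2, where Loxl2 did not pass.

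Further proteins of microfibrils and their assembly went both ways. Of 18 listed genes 13 were tested, and 5 were higher and 6 lower in knockout and 5 higher and 1 lower in heterozygous (median log2 -0.17 and 0.15). The shares of all tested genes were 19.2% higher and 18.9% lower in knockout and 19.2% and 19.7% in heterozygous. The higher count in knockout was 3 with DESeq2, with no filter and without wild-type library 1 or 2 or knockout library 1, and the lower count was 3 without knockout library 2. The lower count in heterozygous was 2 with library totals alone. Mfap2, the close relative of Mfap5, had 19.2 and 18.5 CPM in wild type, 40.1 and 42.4 in heterozygous, and 23.2 and 20.8 in knockout. It thus rose in heterozygous as Eln did (log2 1.13 ± 0.09, SE; edgeR, BH-adjusted p = 1.2e-14), and in knockout it was 0.22 ± 0.09 log2 above wild type (edgeR, BH-adjusted p = 0.0446), a call lost in 8 of 14 alternatives (highest adjusted p = 0.365). Emilin1, which lies between elastin and microfibrils, fell in knockout by 0.39 on the log2 scale, and Emilin2 rose by 0.52. The ADAMTS-like genes Adamtsl3 and Thsd4, whose family binds fibrillin, moved oppositely in knockout, at -0.72 and 2.22 log2 (edgeR, BH-adjusted p = 1.4e-12 and 8.91e-14), and both rose in heterozygous, by 1.13 and 0.88 (edgeR, BH-adjusted p = 5.77e-20 and 0.000244). Emilin2 also rose in heterozygous, by 0.38, where Emilin1, at 0.06, did not pass. Fbln7, another fibulin, with 19 and 17 counts in wild type, rose by 2.86 ± 0.35 log2 in heterozygous and 2.37 ± 0.35 in knockout (SE; edgeR, BH-adjusted p = 4.19e-09 and 3.04e-07).

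Latent TGF-beta binding proteins tie growth factor stores to fibrillin, and Ltbp4 also binds fibulin-5 and is needed for elastic fibre assembly. Ltbp4 had 64.4 and 58.4 CPM in wild type, 32.4 and 31.6 in heterozygous, and 10.3 and 8.88 in knockout. Like Fbn2, it was lower in both altered genotypes and lowest in knockout, at -0.94 ± 0.08 and -2.68 ± 0.09 log2 against wild type (SE; edgeR, BH-adjusted p = 7.47e-14 and 1.66e-27). Ltbp1 and Ltbp2 were higher in both genotypes, at 0.67 and 0.78 log2 in heterozygous and 0.14 and 0.42 in knockout. Ltbp3 was at 0.45 in heterozygous and -0.17 in knockout (edgeR, BH-adjusted p at most 0.00156 for these 3 genes). All 4 were lower in knockout than in heterozygous (edgeR, BH-adjusted p under 0.05), against 17.9% of all tested genes.

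Of 12 proteases able to cut elastin 10 were tested, and 5 were higher and 1 lower in knockout and 7 higher and 2 lower in heterozygous (median log2 0.51 and 0.60). Of all tested genes 19.2% were higher and 18.9% lower in knockout, and 19.2% and 19.7% in heterozygous. Without wild-type library 2 the higher count in heterozygous was 4. Mmp12, the macrophage elastase, had 5.85 and 6.24 CPM in wild type, 11.3 and 11.4 in heterozygous, and 19.6 and 18.7 in knockout, with log2 fold changes of 0.91 ± 0.14 and 1.66 ± 0.13 (SE; edgeR, BH-adjusted p = 3.8e-07 and 2.69e-14). Mmp2, a gelatinase, rose by 1.08 log2 in heterozygous and 0.66 in knockout, and Mmp14, its activator, fell by 0.10 and 0.37. The lysosomal proteases differed: Ctsl, cathepsin L, rose by 0.42 in heterozygous and 0.40 in knockout, and Ctss, cathepsin S, fell by 0.50 in heterozygous and rose by 0.11 in knockout (edgeR, BH-adjusted p at most 0.000255 for both genes). Integrin genes, whose products hold cells to fibrillin and fibulins, were mixed, with 2 of 10 higher and 5 lower in knockout and 3 higher and 4 lower in heterozygous, against 19.2% higher and 18.9% lower, and 19.2% and 19.7%, of all tested genes. The higher count in knockout is close to that share. Itgb1 and Itga5 were lower in both, at -0.34 and -0.55 log2 in knockout and -0.41 and -0.50 in heterozygous, and Itga4 was higher in both, at 0.75 and 0.49 (edgeR, BH-adjusted p at most 8.69e-10 for these 3 genes). Itgav was lower in both, at -0.42 and -0.13, and Itgb3 higher in both, at 0.87 and 0.53 (edgeR, BH-adjusted p at most 0.000704 for both genes).

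**Figure D4:**
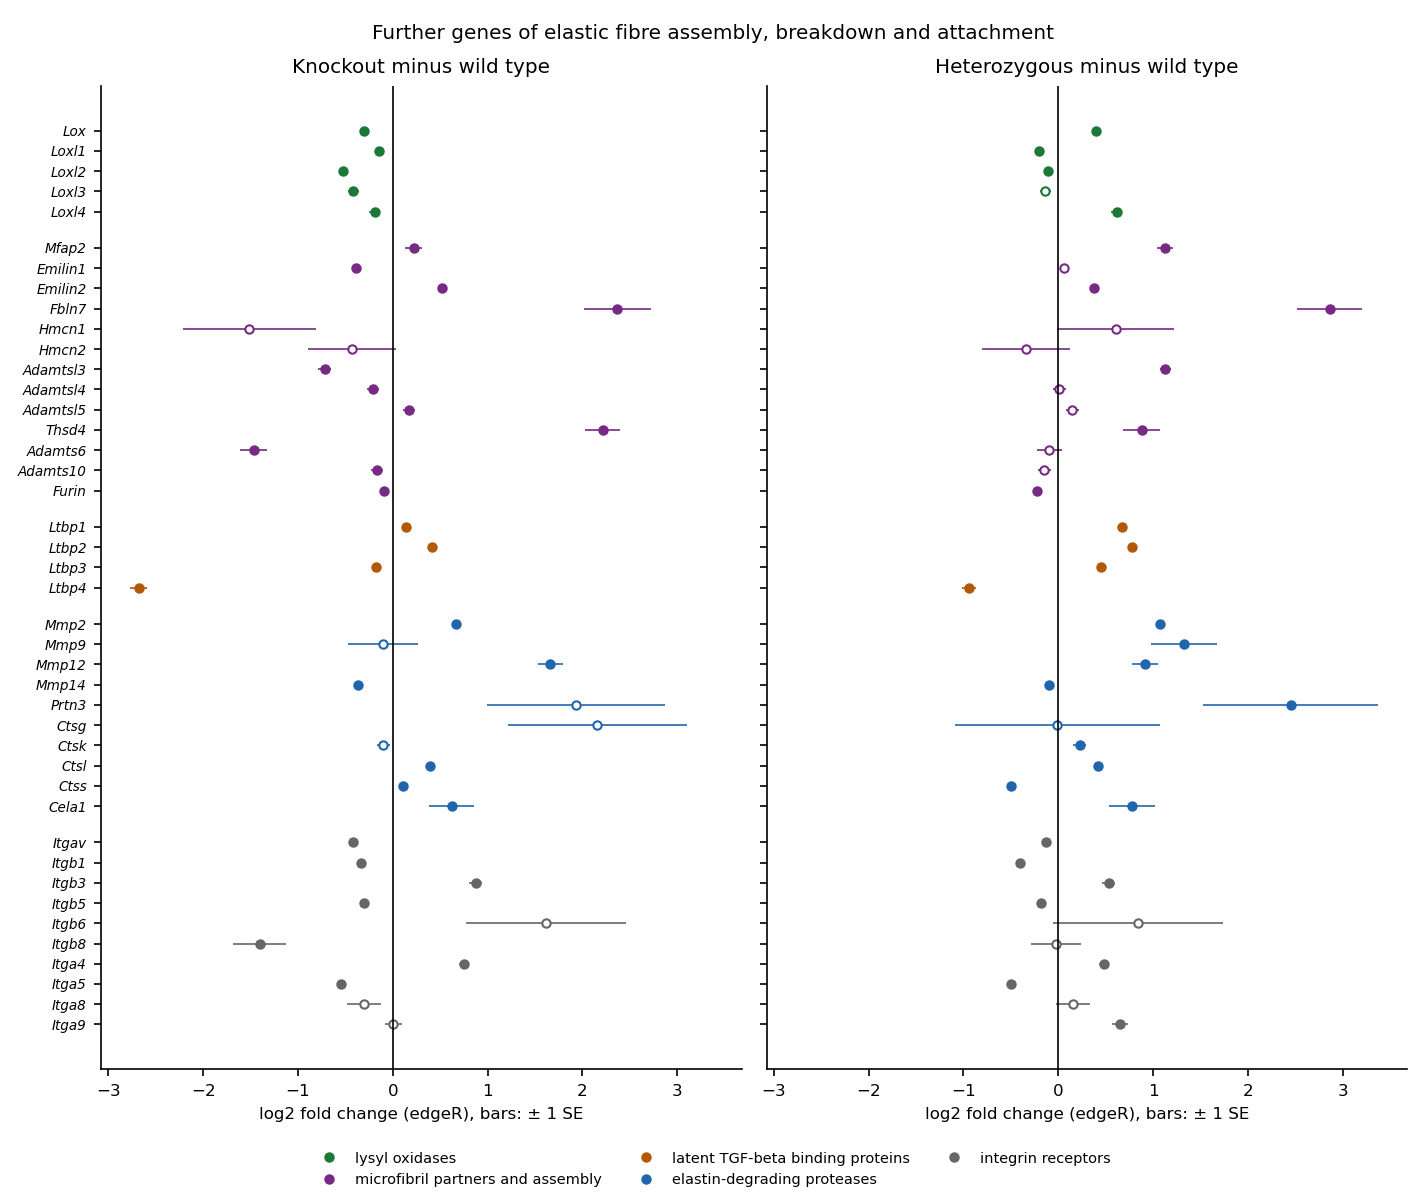
Log2 fold change of the tested genes of 5 further lists in knockout (left) and heterozygous (right), each against wild type, from the edgeR fit; bars are ± 1 SE. Filled circles passed the threshold and open circles did not. The 5 lysyl oxidases lie left of 0 in knockout, and Ltbp4 lies left in both panels.

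Across the 6 libraries, the genes whose centred log2 CPM lay closest to that of Eln among 9703 genes of sufficient level were Mfap4 (root mean square difference 0.69), H19 (0.72), an imprinted non-coding RNA, and Penk (0.74), which encodes proenkephalin. These distances are larger than those of the genes closest to Fbn1, so none of the 9703 genes matched the size of Eln's changes closely. All 3 shared its order, highest in heterozygous and lowest in knockout. The distance also includes the spread between the 2 knockout libraries of Eln. H19 and Penk were 181.6 and 106.8 CPM in wild type, 233.1 and 336.0 in heterozygous, and 30.5 and 35.3 in knockout. The genes closest to Fbn1 were Ldlrad4 (0.032), which encodes an inhibitor of TGF-beta signalling, Pycr1 (0.043), an enzyme of proline synthesis, and Prdm16 (0.045), a transcription factor. Their means were 60.8, 26.1 and 9.86 CPM in wild type, 64.2, 26.2 and 10.2 in heterozygous, and 33.9, 13.9 and 5.26 in knockout. With 2 libraries per genotype such likeness rests on 3 genotype levels.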

How the data were processed

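The authors deposited 1 table of raw read counts per gene symbol with 1 column per library, judged raw because the values are whole and the totals differ. The submitters' processing notes name HISAT2 version 2.0.4 and genome build GRCm38; the counting tool, annotation and strand setting are not stated there. Counts were tested with edgeR 4.0.16 (R 4.3.3): TMM scaling, the default filter by genotype (minimum count 10), and 1 robust quasi-likelihood fit of 6 libraries with 3 residual degrees of freedom, tested on simulated counts. Adjusted p-values (Benjamini-Hochberg or BH, threshold 0.05) cover all 16061 tested genes. SE is the log2 fold change over the square root of F. CPM use TMM-scaled totals, and a count of 0 allows up to 3 counts, or 0.0879 to 0.104 CPM, for counting error only. Whether libraries of 1 genotype are separate animals or cultures is not in the labels, and the p-values then cover the spread between these samples alone, which may be technical. With 2 against 2 libraries an exact permutation test cannot go below p = 0.333, so none was used.

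Members, gene lists and the naming rule were chosen with earlier results of these data known. The rule named all 10 members, the 4 members of each further list with the smallest p-values against wild type in knockout or heterozygous, Lox, Loxl1, Mfap2, Emilin1 and Ltbp1 to Ltbp4, and the 3 genes nearest to Eln and Fbn1 (log2 CPM, prior count 2, mean at least 3). Mapk7, Mus81, the sex-linked genes and the individually named cell type markers were added after their values were seen. Gm9913, which has no counts here, was added for its overlap with Fbn1. Positions and exon lengths come from GENCODE M21 (GRCm38), matched by symbol, and promoters from RefSeq (GRCm38.p6). Alternatives were RLE factors, library totals, DESeq2 1.42.0, no filter, a minimum count of 50, the compared libraries only, a non-robust fit, a replicate block and each library left out; running them on the further genes and lists, and the other marker divisions, was decided after the data were seen.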

Additional observations from a re-analysis of the deposited data

How the results depend on the processing

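Of 420 values for the 10 members in 3 comparisons under 14 alternatives, 413 kept their direction and their side of the threshold, 5 lost the call, 2 gained it and 0 reversed. The losses were Fbn1 in heterozygous, 4 times, and Mfap4 in heterozygous, once. The gains were Fbln5 in knockout without knockout library 2 and Mfap5 in heterozygous with library totals alone. With library totals alone 2 members in place of 1 fell in heterozygous; that scaling puts the median of all genes at -0.04 log2. Leaving out each library in turn gave 7 to 8 members lower and 2 higher in knockout against wild type, 6 to 7 higher and 1 lower in heterozygous against wild type, and 9 lower and 1 higher in knockout against heterozygous. The lone library left in a genotype was assumed to vary like the others. The numbers of genes called over the whole table were 5064 to 6261, 5186 to 6390 and 4823 to 6382 over all alternatives. With a replicate block the members called were 7 lower and 2 higher, 1 lower and 7 higher, and 9 lower and 1 higher, as without it, among 6080, 6222 and 5913 genes called. The deviations of same-numbered libraries correlated at -0.0246 to 0.0222 over 16061 genes. No shared deviation by library number was thus seen, which does not exclude a pairing, and the labels do not state any. For 27 further named genes, 1103 of 1134 values kept direction and side, 22 lost the call, 9 gained it and 0 reversed. Depth limits Eln in knockout, where a library had 44 counts.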
